A study of Mus musculus with 9 samples.

Results

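The data describe 10 genes that encode transcriptional regulators of cardiac fuel use and mitochondria, measured by bulk RNA sequencing of mouse hearts. They are the coactivator genes Ppargc1a and Ppargc1b, the nuclear receptor genes Ppara, Ppard, Rxra, Esrra, Esrrb and Esrrg, and the transcription factor genes Nrf1 and Tfam. Each was found by its symbol among 25468 genes, and all 10 were among the 13514 genes tested, which had a mean of at least 1 FPKM (fragments per kilobase of transcript, scaled to the sequenced total) over the 9 libraries. The hearts were from wild-type mice. Of the 9 libraries, 3 came from sham-operated hearts, 3 from hearts 1 day after acute myocardial infarction and 3 from hearts 7 days after it. The labels give neither the day on which sham hearts were taken nor the strain, age, sex or part of the heart. Both times were compared with the same 3 sham libraries, so the 2 comparisons share their controls. The extraction protocol also names hearts of Hdc-/- mice, which lack the histamine-forming enzyme; these were not analysed here. The labels do not say that replicates are separate animals, so each p-value reflects variation among these libraries only, and that variation may be technical.

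PGC-1α and PGC-1β, the products of Ppargc1a and Ppargc1b, do not bind DNA themselves. They are recruited by DNA-bound factors to genes of mitochondria and of fuel oxidation, and are abundant in heart, where fatty acids are the main fuel. PPARα and PPARδ sense fatty acids and bind DNA as pairs with a retinoid X receptor such as RXRα (Rxra), whereas the estrogen-related receptors ERRα, ERRβ and ERRγ (Esrra, Esrrb, Esrrg) have no known natural hormone and depend on coactivators for their activity. NRF-1 (Nrf1) acts on nuclear genes for mitochondrial proteins, and TFAM (Tfam), encoded by one of them, packages mitochondrial DNA and starts its transcription.

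Of the 10 regulators, 7 were lower 1 day after infarction than in sham hearts and none was higher (limma, Benjamini-Hochberg adjusted p under 0.05 over all genes tested). Among all genes tested, 14.7% were called lower and 13.4% higher in the same comparison. The lower genes were Ppargc1a, Ppargc1b, Ppara, Esrra, Esrrb, Esrrg and Tfam. At day 7, 6 were lower than in sham hearts, the same genes without Ppargc1b, and none was higher, against 17.3% of all genes lower and 15.7% higher. All 3 day 1 libraries were below all sham libraries for 7 of the 10, as for 25.1% of all genes, and above them for none, against 22.5%. At day 7 all 3 were below sham for 7, the 6 called and Ppard, against 28.8% of all genes, and above for none, against 25%. Between day 7 and day 1, limma called none of the 10, against 2.14% of all genes lower and 2.71% higher, and all 10 overlapped, where 14.1% of all genes lay wholly lower and 13.1% wholly higher. Of the 10, Ppargc1b alone had an unadjusted p under 0.05 there. The median log2 change of the 10 was -0.72 at day 1 and -0.59 at day 7, against -0.01 and -0.02 for all genes. Ppard, Nrf1 and Rxra were called in none of the 3 comparisons. Fewer heart muscle cells and less of these RNAs per cell cannot be told apart in bulk tissue.

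**Figure D1:**
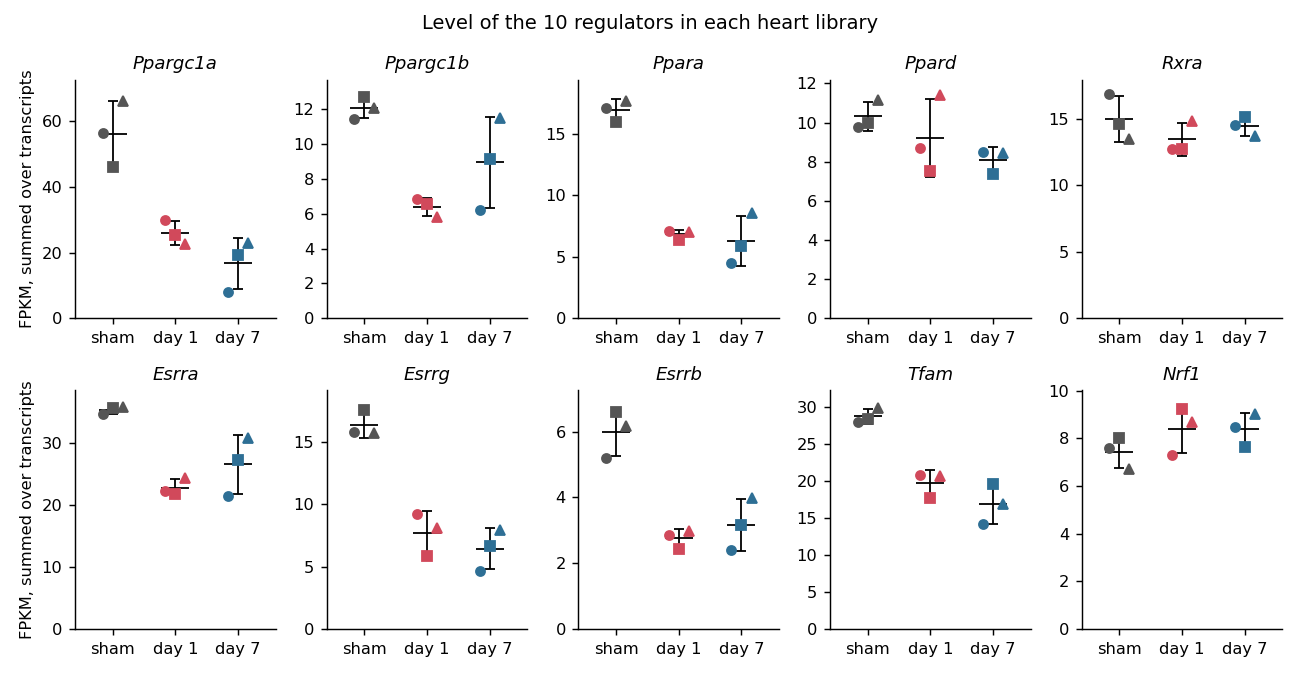
FPKM of each regulator (vertical axis, starting at 0, its own scale in each panel) in the 3 sham, 3 day 1 and 3 day 7 libraries, with replicate 1 as circle, 2 as square and 3 as triangle; horizontal lines are group means and bars 1 SD. The infarct points lie below all sham points for Ppargc1a, Ppara, Esrra, Esrrb, Esrrg and Tfam, while those of Rxra and Nrf1 overlap them.

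Some libraries stood apart, and their values belong beside these counts. The summed FPKM of 6 airway and lung genes was 242 in sham replicate 1 and 1759 in day 1 replicate 2, and at most 19.3 in the other 7 libraries. Sham replicate 1 also had the highest sum of 6 adipocyte genes, 544, against 1.54 to 141 elsewhere, and day 7 replicate 2 had the highest T cell sum, 60.7. That library also had 59.8 FPKM of Myh4 and 74.4 FPKM of Tnnt3, genes of skeletal muscle that were at no more than 0.411 and 5.87 FPKM elsewhere. The sum of the 6 listed skeletal muscle genes was not highest there, at 2412 FPKM against 2772 and 3081 in day 7 replicates 1 and 3. Most of that sum was Acta1, at 2226 FPKM there and 2764 and 3079 in those 2. The sum of 6 atrial genes was 11106 and 4387 in day 1 replicates 1 and 2 and 5450 in day 7 replicate 1, and 237 to 2698 in the other 6 libraries. Without both libraries with airway markers, limma called 0 of the 10 lower at day 1, with 6 of the 10 at an unadjusted p under 0.05 and adjusted p from 0.05002 to 0.190 for the 7. The share of all genes called lower then fell to 1.08%, and the median change of the 10 was -0.73. At day 7 the same omission left 5 lower, with Esrra lost (adjusted p = 0.0983), and 7.75% of all genes lower.

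Heart muscle markers moved in the same direction. The 12 cardiomyocyte marker genes, none at 0 in any library, summed to between 36021 and 40243 FPKM in sham hearts, 18601 and 23528 on day 1 and 14982 and 26308 on day 7. Of these 12, 8 were called lower at day 1 and 7 at day 7, with medians of -0.85 and -0.74. When each library was centred on the mean log2 level of these markers, an alternative chosen after the data were seen, 0 of the 10 regulators were lower at day 1, against 0.311% of all genes, and 3 were higher, Ppard, Nrf1 and Rxra, against 11297 of the 13514 genes. At day 7, 0.459% of all genes were lower and 10775 of the 13514 higher. Of the regulators, 2 stayed lower, Ppargc1a (-0.92, adjusted p = 0.00662) and Ppara (-0.46, adjusted p = 0.0430), and 4 were higher, Ppard, Esrra, Nrf1 and Rxra. That centring shifts every gene alike and moved the median of all genes to 0.90 and 0.86, so a sign that turns under it says only that the gene fell by less than the markers. The regulators' medians, 0.19 and 0.28, were below those of all genes. Markers of other cells were called higher: 5 of 5 tested neutrophil, 5 of 8 monocyte and macrophage, 4 of 8 fibroblast and 2 of 5 erythroid genes at day 1, and 6 of 8 fibroblast, 5 of 5 erythroid and 3 of 8 monocyte and macrophage genes at day 7. The part of cell makeup in the regulators' changes was not tested further.

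Proximal promoter sequence is shown for 5 of the genes: Ppargc1a, which changed most at day 7, Ppara and Esrra, which fell and hold an NRF-1 motif, Tfam, and Perm1, a muscle gene acting with PGC-1 and ERR. Each line gives the 250 bases before the annotated start of transcription, from RefSeq on GRCm38.p6, read 5′ to 3′ on the gene's own strand. This is not the GRCm39 build the authors aligned to. Capitals mark motif matches. They are the NRF-1 motif GCGCATGC in Ppara and Esrra, the NRF-2 (GABP) motif CCGGAAG in Tfam, and the ERR half-site AAGGTCA in Perm1, on either strand.
Ppargc1a, chr5:51567726-51567975, minus strand: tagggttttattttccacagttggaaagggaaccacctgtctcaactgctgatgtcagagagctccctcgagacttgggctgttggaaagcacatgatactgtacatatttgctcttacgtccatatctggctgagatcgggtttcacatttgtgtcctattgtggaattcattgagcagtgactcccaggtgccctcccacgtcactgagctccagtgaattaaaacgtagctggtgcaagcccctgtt
Ppara, chr15:85735526-85735775, plus strand: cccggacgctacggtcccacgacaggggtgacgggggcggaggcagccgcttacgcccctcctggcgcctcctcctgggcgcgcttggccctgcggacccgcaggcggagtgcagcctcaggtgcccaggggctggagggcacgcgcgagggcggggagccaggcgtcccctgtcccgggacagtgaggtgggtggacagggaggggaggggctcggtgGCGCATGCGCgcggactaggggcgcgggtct
Esrra, chr19:6921809-6922058, minus strand: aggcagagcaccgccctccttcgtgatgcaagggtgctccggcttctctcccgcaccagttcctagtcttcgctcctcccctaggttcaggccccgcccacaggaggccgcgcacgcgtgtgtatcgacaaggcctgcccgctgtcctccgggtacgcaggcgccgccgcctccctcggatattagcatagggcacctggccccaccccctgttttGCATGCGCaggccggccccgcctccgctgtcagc
Tfam, chr10:71238045-71238294, minus strand: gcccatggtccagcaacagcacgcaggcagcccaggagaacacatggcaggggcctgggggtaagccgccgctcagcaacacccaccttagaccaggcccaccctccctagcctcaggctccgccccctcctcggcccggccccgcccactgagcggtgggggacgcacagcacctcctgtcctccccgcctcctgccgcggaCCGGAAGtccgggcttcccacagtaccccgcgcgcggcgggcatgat
Perm1, chr4:156215677-156215926, plus strand: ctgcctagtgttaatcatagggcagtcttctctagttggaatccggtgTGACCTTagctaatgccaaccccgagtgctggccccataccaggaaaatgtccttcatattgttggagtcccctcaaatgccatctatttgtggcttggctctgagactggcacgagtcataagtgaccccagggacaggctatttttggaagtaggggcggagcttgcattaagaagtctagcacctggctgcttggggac

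In Ppara the NRF-1 motif was found on both strands in overlapping positions, beginning 31 and 29 bases before the start, and in Esrra on the reverse strand 34 bases before it. GCGCATGC occurred in 2.71% of 32851 promoter windows of the same length (250 bases before and 50 after the start), CCGGAAG in 8.86% and AAGGTCA in 4.72%. The NRF-2 letters were chosen after the windows had been read, and other motifs were looked at as well. AAGGTCA was also found 49 bases before the start in 1 of 2 windows of Rxra, a gene that was not called, and 89 bases before it in 1 of 2 windows of Rxrg. The PPAR direct repeat, AGGTCA repeated after 1 base, occurred in 0.0396% of windows and in none of these genes' windows. Ppargc1b has no entry in the promoter table. A match describes letters only. Among the genes that fell at both times, Ppara, Esrra and Tfam held 1 of the 4 motifs and Ppargc1a, Esrrb and Esrrg held none.

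Ppargc1a had the highest level of the 10 in sham hearts. Its FPKM was 56.4, 46.0 and 66.2 in the sham libraries, 30.0, 25.3 and 22.6 at day 1, and 8.06, 19.3 and 22.9 at day 7. Every infarct library lay below every sham library, whereas the ranges of day 1 and day 7 overlapped. The mean fell from 56.2 ± 10.1 FPKM (SD, n = 3) to 26.0 ± 3.72 at day 1, or 46.2% of sham, and to 16.8 ± 7.74 at day 7, or 29.8%. On the log2(FPKM + 1) scale used for all tests, the changes were -1.08 ± 0.33 (SE; adjusted p = 0.0387) and -1.79 ± 0.33 (adjusted p = 0.00729). The further change from day 1 to day 7, -0.71 ± 0.33, did not pass (adjusted p = 0.236). The call at day 1 was near the threshold: it was lost when any 1 of the 3 sham or 3 day 1 libraries was left out (adjusted p from 0.0638 to 0.111), while the call at day 7 held in all 25 alternatives.

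Ppargc1b, encoding the second coactivator, was lower at day 1 and closer to sham at day 7. Its FPKM was 11.5, 12.7 and 12.1 in sham hearts, 6.83, 6.53 and 5.82 on day 1 and 6.24, 9.12 and 11.5 on day 7. All day 1 libraries lay below the sham range, and the highest day 7 library reached it. The change was -0.82 ± 0.17 at day 1 (adjusted p = 0.0112) and -0.43 ± 0.17 at day 7 (adjusted p = 0.0858). Day 7 was higher than day 1 by 0.39 ± 0.17, which did not pass (adjusted p = 0.215). These 2 results hung on single day 7 libraries: without replicate 1 the day 7 minus day 1 difference was 0.61 and passed (adjusted p = 0.0464), and without replicate 3 the day 7 minus sham change was -0.61 and passed (adjusted p = 0.0203).

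The 2 coactivator genes stood in another proportion at day 7, a difference that was not tested. The Ppargc1a to Ppargc1b ratio of FPKM was 4.92, 3.62 and 5.48 in sham hearts, 4.38, 3.88 and 3.88 on day 1 and 1.29, 2.12 and 1.995 on day 7. All day 7 libraries lay below all others, and sham and day 1 overlapped. Another relative, Pprc1, which encodes a PGC-1-related coactivator, was at 5.57 to 5.83 FPKM in sham, 6.20 to 8.74 at day 1 and 5.19 to 6.04 at day 7. Its day 1 libraries were above both other groups, but neither the difference of 0.34 ± 0.11 (adjusted p = 0.0538) nor that of -0.32 ± 0.11 from day 1 to day 7 (adjusted p = 0.135) passed.

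**Figure D2:**
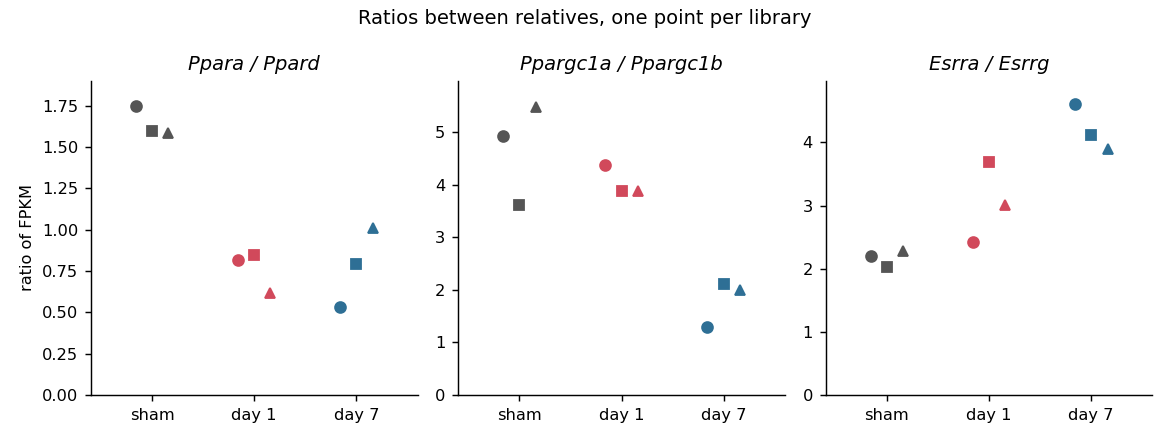
Ratio of FPKM (vertical axis, starting at 0) between relatives in each library, with sham, day 1 and day 7 along the horizontal axis and replicates 1, 2 and 3 as circle, square and triangle. Ppara to Ppard was 1.59 to 1.75 in sham and at most 1.01 after infarction, Ppargc1a to Ppargc1b was lowest at day 7, and Esrra to Esrrg was 2.03 to 2.28 in sham and 3.90 to 4.61 at day 7.

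Ppara, encoding the PPAR that drives fatty acid oxidation genes in heart, fell to about the same level at both times. The sham libraries had 17.1, 15.98 and 17.7 FPKM, those of day 1 7.08, 6.36 and 7.00, and those of day 7 4.49, 5.85 and 8.54. No infarct library came near the sham range. Day 1 stood at 40.3% of the sham mean (-1.20 ± 0.17, adjusted p = 0.00369) and day 7 at 37.2% (-1.33 ± 0.17, adjusted p = 0.00269). The 95% interval of the difference between the 2 times was -0.53 to 0.26, which includes no change.

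Ppard, encoding the broadly expressed PPARδ, kept most of its level. It had 9.78, 9.99 and 11.2 FPKM in sham hearts, 8.68, 7.53 and 11.4 on day 1 and 8.49, 7.37 and 8.45 on day 7. Sham and day 1 overlapped, whereas all 3 day 7 libraries were below sham. Neither change was called, with -0.16 ± 0.13 at day 1 (adjusted p = 0.390) and -0.31 ± 0.13 at day 7 (adjusted p = 0.101). The day 7 result moved to the other side of the threshold in 3 alternatives, among them leaving out day 1 replicate 3 (adjusted p = 0.0324). As a ratio within each library, Ppara to Ppard was 1.75, 1.60 and 1.59 in sham hearts, 0.815, 0.845 and 0.614 on day 1 and 0.529, 0.793 and 1.01 on day 7, so Ppara was above Ppard in every sham library and in 1 of the 6 infarct libraries.

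Rxra, the partner of both PPARs on DNA, showed no called change. Its FPKM was 16.9, 14.6 and 13.5 in sham hearts, 12.7, 12.8 and 14.9 on day 1 and 14.5, 15.1 and 13.7 on day 7, with all 3 groups overlapping. The 95% interval of the change was -0.37 to 0.09 at day 1 and -0.27 to 0.18 at day 7. Both other RXR genes were called lower at day 1. Rxrg, a relative found mainly in muscle and brain, had 29.4, 33.8 and 25.5 FPKM in sham hearts, 10.4, 11.7 and 12.3 on day 1 and 8.60, 15.2 and 15.9 on day 7, with no overlap between sham and either time. It fell by 1.29 ± 0.21 (adjusted p = 0.00519) and 1.14 ± 0.21 (adjusted p = 0.00744) on the log2 scale. Rxrb, expressed in most tissues, was lower at day 1 by a small amount (-0.25 ± 0.08, adjusted p = 0.0404), and that call was lost when any 1 sham or day 1 library or day 7 replicate 3 was left out, and with TPM. Rxrb was not called at day 7 (-0.12, adjusted p = 0.276).

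Pparg, encoding the PPAR of fat cells, had another time course. Its FPKM was 17.7, 12.8 and 11.6 in sham hearts, 12.1, 14.2 and 15.0 on day 1 and 6.68, 8.57 and 8.10 on day 7. The day 7 libraries lay below all others. The change was -0.01 at day 1 (adjusted p = 0.970) and -0.76 ± 0.16 at day 7 (adjusted p = 0.0108). The adipocyte sum was 544, 5.30 and 2.37 in the sham libraries, 66.8, 141 and 1.54 at day 1 and 19.8, 71.0 and 18.4 at day 7, and its part in the Pparg values was not tested. The day 7 call was lost with TPM (adjusted p = 0.0518), with the most expressed transcript, and without incomplete transcripts (adjusted p = 0.0779).

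**Figure D3:**
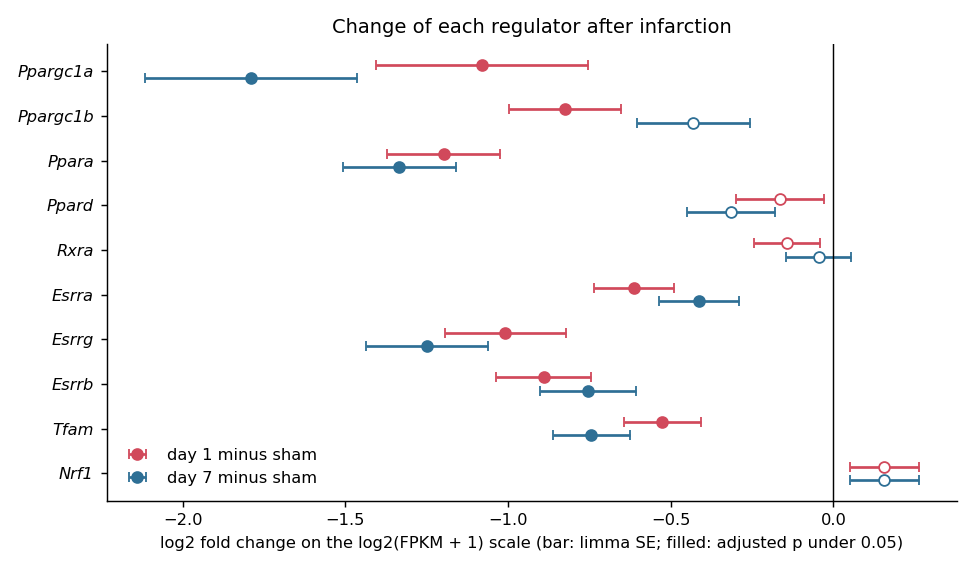
Change of each regulator from sham at day 1 (red) and day 7 (blue) on the log2(FPKM + 1) scale (horizontal axis); bars are limma standard errors and filled points have an adjusted p under 0.05. Ppargc1a at day 7 (-1.79) lies farthest from 0, and the open points of Ppard, Rxra and Nrf1 lie closest to it.

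In the sums over transcripts, the 3 ERR genes were called lower at both times. Centred on muscle markers, none was called lower, and Esrra and Esrrb were above 0. Esrra, the most abundant of them, had 34.7, 35.6 and 35.8 FPKM in sham hearts, 22.3, 21.7 and 24.3 on day 1 and 21.5, 27.3 and 30.9 on day 7. Sham libraries were tightly grouped and above every infarct library. Esrra stood at 64.5% of sham at day 1 (-0.61 ± 0.12, adjusted p = 0.00993) and 75.2% at day 7 (-0.41 ± 0.12, adjusted p = 0.0336). Its day 7 call was lost in 10 alternatives, TPM among them (-0.07, adjusted p = 0.608). Others were leaving out sham replicate 1, 2 or 3 or day 7 replicate 2 (adjusted p from 0.0622 to 0.0908), and leaving out day 7 replicate 1, which reduced the change to -0.27 (adjusted p = 0.0674). Exons of Esrra overlap those of Trmt112 on the opposite strand and of a microRNA gene on the same strand in the GRCm38 annotation, and the sources used here do not say whether counting used strand, so part of its reads could belong to them.

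Esrrg, the ERR most typical of oxidative muscle, fell more. It had 15.8, 17.6 and 15.7 FPKM in sham hearts, 9.19, 5.88 and 8.10 on day 1 and 4.67, 6.64 and 7.92 on day 7, without overlap between sham and either time. The changes were -1.01 ± 0.19 (adjusted p = 0.00758) and -1.25 ± 0.19 (adjusted p = 0.00406). With its most expressed transcript alone, Esrrg was not called at day 1 (-0.67, adjusted p = 0.0780). Esrrb was the scarcest of the 10 in every group in the sums over all transcripts. It had 5.19, 6.58 and 6.16 FPKM in sham hearts, 2.85, 2.44 and 2.99 on day 1 and 2.39, 3.15 and 3.97 on day 7. The Esrrb changes were -0.89 ± 0.15 (adjusted p = 0.00540) and -0.75 ± 0.15 (adjusted p = 0.00866). Both groups of infarct libraries were again below all sham libraries. Within libraries, the Esrra to Esrrg ratio was 2.20, 2.03 and 2.28 in sham hearts, 2.43, 3.70 and 3.005 on day 1 and 4.61, 4.12 and 3.90 on day 7, so the 3 groups did not overlap in the sums over all transcripts. Without incomplete transcripts sham and day 1 did overlap in this ratio. Sham replicate 1 then had 31.6 FPKM of Esrra and 9.08 of Esrrg, a higher ratio than day 1 replicate 1 with 22.3 and 6.74.

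Nrf1 was the only regulator with a higher mean after infarction at both times, and the difference was within the spread. It had 7.58, 7.997 and 6.69 FPKM in sham hearts, 7.28, 9.22 and 8.70 on day 1 and 8.50, 7.64 and 9.02 on day 7. All groups overlapped. The change was 0.16 ± 0.11 at both times (adjusted p = 0.301 and 0.277), with 95% intervals of -0.09 to 0.40 and -0.08 to 0.40. After rescaling of every library to a common total (TPM), which raised the median of all genes by 0.23 and 0.30, Nrf1 was at 0.42 (adjusted p = 0.0724) and 0.49 (adjusted p = 0.0347). With its most expressed transcript, Nrf1-211, in place of the sum it was at -0.14 (adjusted p = 0.622) and -0.46 (adjusted p = 0.0946), so its direction depends on the choice of transcripts.

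Tfam fell at both times. Its FPKM was 28.0, 28.4 and 30.0 in sham hearts, 20.8, 17.7 and 20.7 on day 1 and 14.2, 19.6 and 16.9 on day 7, and the sham range was reached by no infarct library. The changes were -0.53 ± 0.12 at day 1 (adjusted p = 0.0141) and -0.74 ± 0.12 at day 7 (adjusted p = 0.00483). The day 1 call was lost without day 1 replicate 2 (adjusted p = 0.0558) and with TPM (adjusted p = 0.127).

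The deposited file lists transcripts, and a gene's value here is the sum over them. The 10 regulators had 48 transcripts, of which 22 reached a mean of 1 FPKM. Of these 22, 8 were lower at day 1 and 10 at day 7, and none was higher than sham, against 9.92% and 12.5% of all transcripts tested that were lower and 8.29% and 10.1% that were higher. Between the times, Tfam-205 was lower and Tfam-202 higher at day 7, with 1.7% of all transcripts lower and 1.87% higher. Without both libraries with airway markers, 0 and 5 were called, against 0.251% and 3.69% of all transcripts. Both tested Ppara transcripts fell at both times: Ppara-202 carried 60.3% of the sham sum and Ppara-201 38.8%, and these shares were 60.9% and 39.1% at day 7. Of the 2 tested Esrrb transcripts, Esrrb-204 went from 3.10 ± 0.677 FPKM in sham to 0.933 ± 0.135 at day 1 (adjusted p = 0.0122), whereas Esrrb-203 was not called at either time (adjusted p = 0.403 and 0.375). The call for Esrrb is therefore lost when the transcript most abundant over the 9 libraries, Esrrb-203, stands for the gene (-0.32 at both times). None of the 4 tested Nrf1 transcripts was called.

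The choice of transcripts turned the direction of Tfam between the times. The short model Tfam-205, of 472 bases and annotated without a complete 3′ end, held 35.5% of the sham sum. It had 9.30, 9.62 and 11.7 FPKM in sham hearts, 10.02, 6.38 and 7.80 on day 1 and 0.000427, 3.36 and 1.22 on day 7. Its day 7 libraries lay below all others, with a change from sham of -2.39 (adjusted p = 0.0104) and from day 1 of -2.07 (adjusted p = 0.0448). Tfam-202, of 779 bases with both ends, went the other way between the times: it had 12.03, 11.3 and 11.4 FPKM in sham hearts, 5.98, 6.79 and 7.67 on day 1 and 10.02, 10.3 and 9.69 on day 7. It was lower than sham at day 1 (-0.69, adjusted p = 0.0054) but not called at day 7 (-0.19, adjusted p = 0.174), and it rose from day 1 to day 7 by 0.50 (adjusted p = 0.0316). Tfam-201, of 4167 bases, was not called at either time (adjusted p = 0.0529 and 0.120).

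Without transcripts annotated as incomplete, an alternative chosen after these values were seen, the Tfam mean was 18.6 FPKM in sham, 11.7 at day 1 and 15.4 at day 7. Day 1 was then at -0.63 (adjusted p = 0.00290) and day 7 at -0.26 (adjusted p = 0.0436) against sham. Day 7 was above day 1 by 0.37 (adjusted p = 0.0429), where the sum over all transcripts had -0.22 ± 0.12 (adjusted p = 0.308). Ppargc1a and Esrrg also drew on short incomplete models, Ppargc1a-202 of 488 bases with 33.2% of the sham sum and Esrrg-204 of 450 bases with 34.0%. Without them, Ppargc1a was still lower at day 1 (-0.92, adjusted p = 0.0377) and day 7 (-1.45, adjusted p = 0.00813), and Esrrg likewise (-0.78, adjusted p = 0.0209, and -0.97, adjusted p = 0.00950). The sources used here do not say how the authors divided reads among transcripts, and its part in the Tfam values was not tested.

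**Figure D4:**
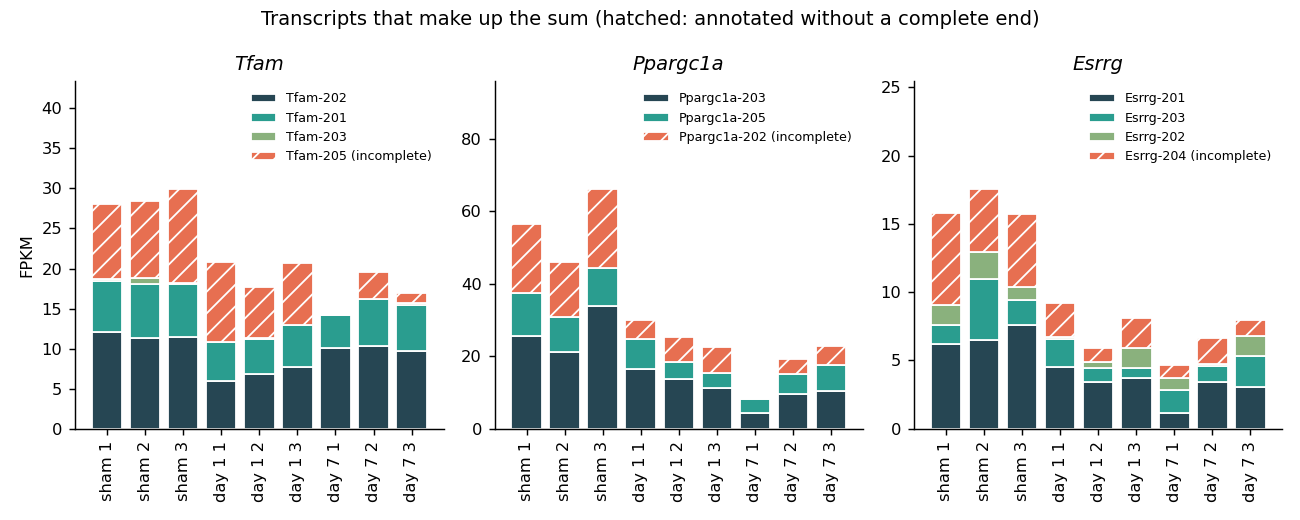
FPKM of the transcripts of Tfam, Ppargc1a and Esrrg stacked in each library (vertical axis, starting at 0), with sham, day 1 and day 7 replicates along the horizontal axis; hatched segments are models annotated without a complete end. The hatched Tfam segment shrinks from 9.30 to 11.7 FPKM in sham to at most 3.36 at day 7, while Tfam-202 at day 7 (9.69 to 10.3) is above day 1 (5.98 to 7.67).

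The order of levels within a group, per length and in FPKM, changed as the genes fell. In sham the order was Ppargc1a, Esrra, Tfam, Ppara, Esrrg, Rxra, Ppargc1b, Ppard, Nrf1 and Esrrb, and neighbours had separate ranges except Ppara with Esrrg and Esrrg with Rxra. At day 1 Ppargc1a and Esrra overlapped, Rxra and Ppard came next after Tfam, and the ranges of Ppard, Nrf1, Esrrg, Ppara and Ppargc1b overlapped each with its neighbour. At day 7 Esrra led with Tfam below it, and Ppargc1a overlapped both Tfam and Rxra. By its mean Ppara had moved from the fourth place in sham to the ninth, above Esrrb. The day 7 ranges of Ppargc1b, Nrf1, Ppard, Esrrg and Ppara overlapped each with its neighbour. Without incomplete transcripts the sham means of Ppargc1a and Tfam were 37.5 and 18.6 FPKM, with Esrra at 31.8 between them. The sham ranges of Ppargc1a and Esrra then overlapped, and the sham mean of Nrf1 (5.87) was below that of Esrrb (5.98). At day 1 the mean of Esrra (21.4) was above that of Ppargc1a (19.5). At day 7 the mean of Ppara, 6.29 FPKM, was then above those of Nrf1 (5.88) and Esrrg (5.08).

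Single libraries carried part of the spread at day 7. Replicate 1 was the lowest of the 3 day 7 libraries for 7 of the 10 regulators, all but Ppard, Nrf1 and Rxra. For 6 of them, all but Tfam, replicate 3 was the highest. The cardiomyocyte marker sum stood in the same order, 14982, 22313 and 26308 FPKM, and replicate 1 also had the highest fibroblast marker sum, 6414 against 4582 and 4616, and the lowest share of FPKM from mitochondrially encoded genes, 24.4% against 36.0% and 38.0%. The part of these differences in the day 7 values was not tested.

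Across the 9 libraries, which include the group differences, the 7 genes called lower at day 1 varied together. Their pairwise Pearson correlation of log2(FPKM + 1) ranged from 0.659 (Ppargc1b with Tfam) to 0.968 (Ppara with Esrrg). Nrf1 had a negative correlation with each of the other 9 (from -0.683 with Tfam to -0.0962 with Rxra). Among 12443 other protein-coding genes tested, those most like Ppargc1a were Cnst, Nqo2 and Fyco1 (r = 0.989, 0.988 and 0.987). Ppargc1b was most like Lynx1, Lrba and Tmem25 (0.986, 0.981 and 0.978). For Ppara they were Dcaf11, Cpped1 and Lrrc4b (0.993, 0.992 and 0.990), and for Esrra Dnajc4, Hmgb3 and Ap5s1 (0.995, 0.992 and 0.990). Esrrb was most like Cand2, Fem1a and Ldb3 (0.995, 0.994 and 0.994), Esrrg like Rilpl1, Mrpl15 and Mettl5 (0.988 each), and Tfam like Ggct, 5830415F09Rik and Ttc32 (0.986, 0.979 and 0.977). These are descriptions over 9 libraries in which each gene shares the library's tissue makeup and scaling.

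The partners and modulators of these regulators, 40 genes all tested, had 10 lower and 0 higher at day 1 (all genes: 14.7% lower, 13.4% higher) and 13 lower and 0 higher at day 7 (17.3% and 15.7%), with medians of -0.16 and -0.23. At an unadjusted p under 0.05, 2 and 3 were higher and 16 and 20 lower. Perm1, a muscle gene induced by PGC-1 and ERR, had the largest change of the list at day 1. Its FPKM was 60.7, 80.7 and 63.0 in sham hearts, 24.9, 25.0 and 30.8 on day 1 and 20.0, 28.6 and 37.7 on day 7, and every infarct library was well below sham. It fell by 1.30 ± 0.21 (adjusted p = 0.00541) and 1.25 ± 0.21 (adjusted p = 0.00613) on the log2 scale. Prkag1, a regulatory subunit of the energy sensor AMPK, was at 41.1, 41.3 and 41.5 FPKM in sham and between 24.8 and 29.4 in the 6 infarct libraries (-0.63 ± 0.08, adjusted p = 0.00257, at day 1). Nr0b2, encoding the corepressor SHP, fell at day 1 from 8.43 ± 1.88 to 3.73 ± 0.117 FPKM (-0.98 ± 0.19, adjusted p = 0.00908). At day 7 Klf15, a factor of cardiac lipid metabolism, was at 39.2% of sham (-1.30 ± 0.23, adjusted p = 0.00709) and Lpin1, encoding the PGC-1α partner lipin 1, at 49.2% (-0.999 ± 0.19, adjusted p = 0.00799). The corepressor gene Nrip1 was not called at day 1 (0.24, adjusted p = 0.136) or day 7 (0.30, adjusted p = 0.0624), nor was Gabpa, encoding a subunit of NRF-2 (-0.16, adjusted p = 0.280, and -0.28, adjusted p = 0.0746). The day 1 count fell to 5 when sham replicate 1 or 3 was left out (all genes: 9.01% and 8.99% lower) and to 6 for sham replicate 2 (6.04%). It fell to 4 for day 1 replicate 2 (5.85%) and to 1 for the pair of libraries with airway markers (1.08%). With TPM the list's median was 0.11 at both times, below that of all genes (0.23 and 0.30), with 3 higher and 4 lower at day 1 and 6 higher and 6 lower at day 7. Of all 13514 genes, 2445 were then higher and 4.45% lower at day 1, and 3809 higher and 3.90% lower at day 7.

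Of 33 genes known as PPAR targets of fatty acid handling, 32 were tested. At day 1, 9 were lower and 3 higher (all genes: 14.7% and 13.4%), and at day 7, 13 were lower and 3 higher (17.3% and 15.7%). The medians were -0.51 and -0.62, the latter -0.29 without day 7 replicate 1. The higher genes were Angptl4, Plin2 and Ucp2 at day 1 and Angptl4, Ucp2 and Cpt1a at day 7; Ucp2 at day 1 and Cpt1a were singled out after their values were seen. Angptl4, a secreted inhibitor of lipoprotein lipase, had 13.1, 2.73 and 5.36 FPKM in sham hearts, 41.1, 47.1 and 33.6 on day 1 and 11.8, 22.4 and 17.9 on day 7. All day 1 libraries were above sham (2.57 ± 0.43, adjusted p = 0.00559), while day 7 overlapped sham replicate 1 (1.36 ± 0.43, adjusted p = 0.0406) and lost its call without sham replicate 2 or 3, day 1 replicate 1 or 2, or any day 7 library. Plin2, a lipid droplet coat protein, went from 41.0 ± 9.95 to 92.2 ± 26.9 FPKM at day 1 (1.14 ± 0.24, adjusted p = 0.0107). Ucp2, a mitochondrial carrier, had 45.1 ± 9.69 FPKM in sham and 103 ± 9.09 at day 7 (1.19 ± 0.19, adjusted p = 0.00502).

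The PPAR targets that fell included genes of uptake and storage. Fabp3, the heart fatty acid binding protein, was at 44.8% of sham at day 1 (-1.16 ± 0.27, adjusted p = 0.0151). Plin5, another droplet coat protein, stood at 38.8% (-1.31 ± 0.31, adjusted p = 0.0163). At day 7 Lpl, encoding lipoprotein lipase, was at 37.8% (-1.47 ± 0.27, adjusted p = 0.00716) and Ech1, of fatty acid oxidation, at 42.4% (-1.33 ± 0.31, adjusted p = 0.0147). Fabp3 was not called at day 7 (-0.64), nor in any of 24 alternatives. The day 7 call of Plin5 (-0.93) and the day 1 call of Ech1 (-1.02) were each lost in 12 of them. The day 1 call of Lpl (-0.91) was lost in 9. Counts of lower genes rested on single libraries. At day 1 the 9 became 4, 1 and 4 without sham replicate 1, 2 or 3, 3 and 1 without day 1 replicate 1 or 2, and 19 without day 7 replicate 1. At day 7 the 13 became 2, 2 and 4 without sham replicate 1, 2 or 3 (11.2%, 7.71% and 11.1%). The higher genes fell from 3 to 1 without sham replicate 2, where 1124 of all 13514 genes were higher. Omitting the pair of libraries with airway markers left 2 higher and 0 lower at day 1, and 3 higher and 1 lower at day 7. Of all 13514 genes, 256 were then higher and 1.08% lower at day 1, and 1078 higher and 7.75% lower at day 7. With TPM, 7 and 8 were lower (all genes: 4.45% and 3.90%), and with quantile normalization 4 and 7 (14.8% and 16.2%).

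ERR targets of oxidative metabolism moved in 1 direction. In all 31 genes, every day 1 library was below every sham library, and at day 7 the same held for 30, the other being Ckmt2, named after its value was seen. Groups without overlap in this direction were found for 25.1% and 28.8% of all genes tested. The medians were -0.61 at both times, and limma called 18 lower at day 1 and 22 at day 7, against 14.7% and 17.3% of all genes. None was higher at either time (0), also at an unadjusted p under 0.05. Timm8b, of the mitochondrial import machinery, was the most changed at day 1 (-0.87 ± 0.17, adjusted p = 0.00870), followed by Slc25a4, the heart ADP/ATP carrier (-0.83 ± 0.21, adjusted p = 0.0217), Sdhd, of succinate dehydrogenase (-0.81 ± 0.14, adjusted p = 0.00639), and Etfb, of the electron transfer flavoprotein (-0.79 ± 0.23, adjusted p = 0.0329). At day 7 Etfb led (-0.98 ± 0.23, adjusted p = 0.0145), and Cox6c of cytochrome oxidase (-0.83, adjusted p = 0.0149) and Ndufs1 of complex I (-0.83, adjusted p = 0.0166) were also lower. With TPM 13 and 9 were lower and the medians were -0.33 and -0.25, against 0.23 and 0.30 for all genes. Quantile normalization left 5 and 10 lower, and TPM without mitochondrially encoded genes 8 and 10. Of all genes, 4.45% and 3.90% were lower with TPM and 14.8% and 16.2% with quantile normalization. With TPM without mitochondrially encoded genes the shares were 6.56% and 7.72%. The calls depended on single libraries: at day 1 there were 3, 3 and 6 without sham replicate 1, 2 or 3, 3 without day 1 replicate 1 or 2 and 30 without day 7 replicate 1. At day 7 there were 6, 5 and 9 without sham replicate 1, 2 or 3 (11.2%, 7.71% and 11.1%) and 12 without day 7 replicate 1 (9.67%). Omitting the pair of libraries with airway markers left 0 and 1 called, against 1.08% and 7.75% of all genes lower. The medians were then -0.52 and -0.58.

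Genes that transcribe and maintain mitochondrial DNA, where NRF-1 and TFAM act, had 11 of 26 lower and 1 higher at day 1 (all genes: 14.7% and 13.4%). At day 7, 13 were lower and 0 higher, 2 being higher at an unadjusted p under 0.05 (all genes: 17.3% and 15.7%), with a median of -0.37 at both times. The higher gene was Primpol, a primase-polymerase named after its value was seen (0.63, adjusted p = 0.0468). Lower genes at day 1 included Mterf2 of the mitochondrial termination factor family (-0.83 ± 0.17, adjusted p = 0.0114), Tefm, the elongation factor (-0.80 ± 0.12, adjusted p = 0.00409), and the RNA-stabilising partners Slirp (-0.74 ± 0.15, adjusted p = 0.00941) and Lrpprc (-0.68 ± 0.19, adjusted p = 0.0292). At day 7 Slirp was at 46.6% of sham (-1.08 ± 0.15, adjusted p = 0.00302) and Mgme1, a mitochondrial DNA exonuclease, at 53.1% (-0.77 ± 0.13, adjusted p = 0.00533). The count at day 1 was 6, 6, 6 and 5 without sham replicate 1 or 2 or day 1 replicate 1 or 2 (all genes: 9.01%, 6.04%, 9.15% and 5.85% lower), and 1 when the airway pair was omitted (1.08%). At day 7 it was 8, 7, 8 and 8 without sham replicate 1, 2 or 3 or day 7 replicate 1 (11.2%, 7.71%, 11.1% and 9.67%), and 7 when that pair was omitted (7.75%). With TPM, 4 and 3 were lower (4.45% and 3.90%). Primpol lost its call without sham replicate 1, 2 or 3, day 1 replicate 1 or 2 or day 7 replicate 3.

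The 13 protein-coding genes of mitochondrial DNA itself, whose transcription TFAM starts, had medians of -0.51 at day 1 and -0.55 at day 7, with 9 of 13 below the sham range at each time (25.1% and 28.8% of all genes). The medians were -0.23 and -0.19 with TPM and 0 and -0.05 with quantile normalization, and the day 7 median was -0.29 without day 7 replicate 1. Limma called 0 at day 1 (2 lower at an unadjusted p under 0.05) and 1 at day 7, mt-Nd4l (-0.96 ± 0.28, adjusted p = 0.0304). Of all genes, 14.7% and 17.3% were called lower. At day 1, 3 were called without day 1 replicate 3 or day 7 replicate 1. At day 7 the call was lost without sham replicate 1, 2 or 3 (11.2%, 7.71% and 11.1%). Without day 1 replicate 3 or day 7 replicate 3, 2 and 3 were called (19.4% and 16.3%).

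**Figure D5:**
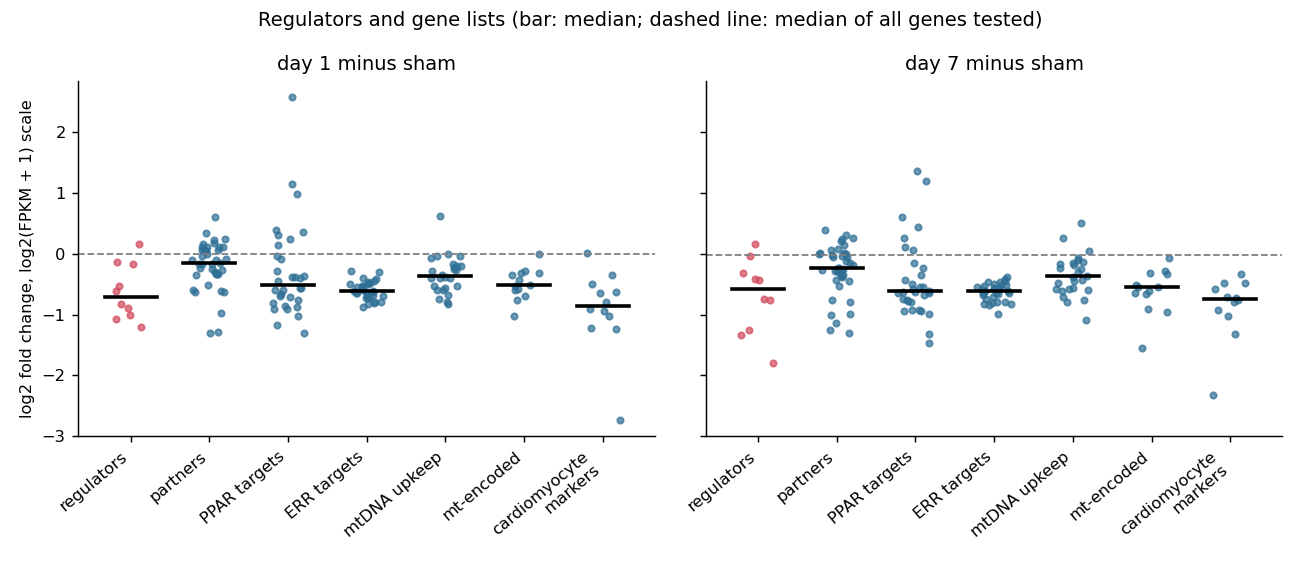
Log2 change from sham (vertical axis) of each tested gene at day 1 (left) and day 7 (right); points are genes, black bars list medians and the dashed line the median of all genes tested. The ERR targets all lie below 0, with a median of -0.61 at both times, while the PPAR targets reach from Angptl4 (2.57 at day 1) down to Lpl (-1.47 at day 7).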

How the data were processed

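Mouse heart RNA for 9 libraries was extracted with TRIzol and, per the labels' protocols, turned into libraries (VAHTS Universal V6 kit). The submitters' processing notes name FastQC 0.11.9, HISAT2 2.1.0, HTSeq 0.11.2 and the build GRCm39. The authors deposited FPKM values per transcript for each library. The sources used here do not name the annotation release, the strand setting or how reads were divided among transcripts. The values do not give whole reads (11.8% of positive values are under 1e-06), so the depth of each library is unknown and no counting interval is given.

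FPKM was summed over the transcripts of each gene identifier. Genes with a mean of at least 1 FPKM over the 9 libraries (13514 of 25468) were tested on log2(FPKM + 1) with limma 3.58.1 (R 4.3.3, mean-variance trend), all 9 libraries in 1 fit, 3 contrasts, Benjamini-Hochberg adjustment over all genes and a threshold of 0.05. A fold change on this scale understates that of low genes. Transcripts were fitted likewise (20698 of 55361). With 3 libraries a group, the smallest two-sided p of an exact permutation test is 0.1, and no such test was run. The procedure was tested on simulated data.

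The members, gene lists and marker lists were chosen with earlier results of these data known. Named are the 10 members, 7 partner genes (Perm1, Pparg, Rxrb, Rxrg, Pprc1, Nrip1, Gabpa), up to 4 called genes of each list with the largest change at each time, and for each called member the 3 protein-coding genes most like it by Pearson correlation. A gene that this rule selects is not reported here. mt-Nd4l was named because it was the 1 called gene of its list. Atp5f1b, Atp5pb and Twnk were matched by older symbols. Promoter windows and transcript ends come from annotations of GRCm38. Alternatives changed 1 choice at a time: the pseudocount, filter, scaling, model, transcripts and each library left out.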

Additional observations from a re-analysis of the deposited data

Results flagged for a closer look

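Pparg, encoding the PPAR of fat cells, was the 1 gene among the regulators and their partners whose day 7 level differed from day 1 by a test of the difference itself (-0.75 ± 0.16 on the log2 scale, limma, adjusted p = 0.0366). That is 1 call among 10 regulators and 40 partners, where 2.14% of all genes were lower and 2.71% higher. Pparg was flagged by this call alone. It had 12.1, 14.2 and 15.0 FPKM at day 1 and 6.68, 8.57 and 8.10 at day 7, so all 3 day 7 libraries were below all 3 day 1 libraries. The call was lost in 14 of 24 alternatives: without sham replicate 2 (adjusted p = 0.0540), without any 1 of the day 1 or day 7 libraries (adjusted p from 0.0566 to 0.109), without both libraries with airway markers (adjusted p = 0.0997), with TPM, no filter on low values, only the 2 groups compared or the replicate block (adjusted p from 0.0506 to 0.0883), with the most expressed transcript (-0.25, adjusted p = 0.545) and without incomplete transcripts (-0.30, adjusted p = 0.519).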

How the results depend on the processing

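Each regulator was recomputed under 25 alternatives (24 for Esrrb and the genes of the lists). The count of regulators lower at day 1, 7, was 4 with the most expressed transcript of each gene, 0 without both libraries with airway markers and 0 when centred on muscle markers; leaving out 1 library gave 5 to 7. The count lower at day 7, 6, was 2 when centred (0.459% of all genes) and 5 to 7 with 1 library left out (7.71% to 19.4%). The count higher at day 1, 0, was 1 (Nrf1) with TPM computed without mitochondrially encoded genes and 3 when centred, and at day 7, 0, it was 1 (Nrf1) with either TPM and 4 when centred. Of all genes, 3583 of 13501 were higher at day 1 with TPM computed without mitochondrially encoded genes. At day 7, 3844 were higher with it and 3809 of 13514 with TPM. When centred, 11297 and 10775 of all 13514 genes were higher at day 1 and day 7. The count higher at day 7 than at day 1, 0, was 1 (Tfam) with the most expressed transcript, 1 (Tfam) without incomplete transcripts and 0 to 1 with 1 library left out (Ppargc1b without day 7 replicate 1). In these 3 settings 364 of 13058, 391 of 13402 and 160 of 13514 genes were higher. Centring adds one shift to every gene, so signs turned wherever a fall was smaller than that of the markers: at day 1 and day 7 the values were 0.75 and 0.56 for Ppard, 0.30 and 0.46 for Esrra, 0.0215 and 0.12 for Esrrb, 0.39 and 0.13 for Tfam and 0.77 and 0.83 for Rxra, and 0.088 and 0.44 for Ppargc1b. The Tfam difference between the times was 0.50 with the most expressed transcript and 0.37 without incomplete transcripts, Nrf1 was at -0.14 and -0.46 with its most expressed transcript, and Rxrb at day 1 was 0.00331 with TPM; the cause was not tested. TPM moved the share of all calls that were higher from 47.7% to 80.3% at day 1 and from 47.6% to 87.8% at day 7. It left 5 regulators lower at each time, against 4.45% of all genes at day 1 and 3.90% at day 7. Of 9 pairs of same-numbered replicates, 4 had a correlation of their deviations from the group mean over 0.1 (range -0.37 to 0.27). With 3 libraries a group, these correlations cannot decide whether the numbers pair the libraries. With the replicate as a block, 6 regulators were lower at day 1, Ppargc1a being lost (adjusted p = 0.0606), and 6 at day 7, and the all-gene counts were 1448 higher and 1590 lower at day 1 and 1717 and 1893 at day 7, against 1817, 1993, 2127 and 2341 without it. The centring, the omission of the airway libraries and of incomplete transcripts were chosen after the data were seen. Without counts, depth could not be used to judge low values.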
